A study of Mus musculus with 24 samples.

Results

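Fos and Egr2 are immediate early genes, and each is read here by 1 probe of the 45281 probes on an Illumina bead array of mouse anterior cingulate cortex. The Fos probe is ILMN_2750515 and the Egr2 probe is ILMN_2623983. The platform's annotation gives both probes these gene names and no other probe to either gene. They are 2 of the 19057 genes that the annotation names on the array. The pair was selected on the measured difference between cuff and sham mice, so that difference is described below with its standard error and without a test. Changes with time, the spread between mice and the way the genes vary together within a group were not the measure of that choice. The time contrasts use the same group means, so they may not be wholly independent of it.

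The study measured total RNA of whole anterior cingulate cortex from male C57BL/6J mice, 1 array per sample, in 4 groups of 6. Mice carried a cuff, a tube placed around the sciatic nerve as a model of neuropathic pain, or had sham surgery, and were sampled 2 or 8 weeks after surgery; the title names depression that follows such pain. The groups were cuff at 2 weeks, sham at 2 weeks, cuff at 8 weeks and sham at 8 weeks, with the 6 samples of each described as biological replicates. The age of the mice is not given in the sources used here, and replicate numbers in the text only name arrays. Levels are normexp-corrected, quantile-normalised log2 intensities of bulk tissue, in which more cells of a type and more RNA per cell cannot be told apart.

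Between 20067 and 21715 probes were detected per array at a detection p below 0.05. The median raw intensity of an array lay between 72.02 and 100.9. The correlation between any pair of arrays over tested probes was between 0.976 and 0.995. Of all probes, 22456 (49.6%) were detected on at least 6 of the 24 arrays and were tested. Fos and Egr2 gave a detected signal on each of the 24 arrays. Of the neuron markers, 6 of 7 measured were detected on all 24 arrays, Slc17a7, Rbfox3 and Syt1 among them, and Tubb3 on 13. Of the cortical layer markers, 5 of 6 were detected on all 24, Tbr1 and Fezf2 among them, and Foxp2 on 10. Of the striatal markers, Drd1, Ppp1r1b and Penk were also detected on all 24 and Drd2 on 6, so detection alone does not set the labelled cortex apart from striatum.

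Immediate early genes are transcribed within minutes of strong synaptic input, without new protein synthesis, because their promoters are bound in advance by factors that calcium and kinase signals switch on. Fos encodes a leucine zipper protein that pairs with Jun proteins to form the AP-1 transcription factor. Egr2 (Krox20) encodes a zinc finger transcription factor, known in Schwann cells for switching on myelin genes and induced in forebrain neurons by activity. In the anterior cingulate cortex, a region that takes part in the unpleasantness of pain, their transcripts are commonly read as a record of recent neuronal activity.

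The promoters of both genes are shown because the cyclic AMP and serum response sites in such promoters are the textbook entry points of these signals. Each is the 250 bases before a RefSeq transcription start in GRCm38.p6, on the plus strand, at chr12:85473640-85473889 for Fos and chr10:67537619-67537868 for Egr2. RefSeq gives 1 start window for Fos and 5 for Egr2, and the Egr2 window with the most kinds of searched motif is printed. Capitals mark matches to the core TGACG of the cyclic AMP response element or its reverse complement CGTCA, to TATAAA, or to the CArG box of serum response factor.
Fos: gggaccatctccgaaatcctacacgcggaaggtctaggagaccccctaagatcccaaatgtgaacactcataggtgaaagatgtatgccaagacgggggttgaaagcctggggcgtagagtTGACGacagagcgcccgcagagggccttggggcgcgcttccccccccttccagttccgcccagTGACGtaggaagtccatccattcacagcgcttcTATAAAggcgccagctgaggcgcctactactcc
Egr2: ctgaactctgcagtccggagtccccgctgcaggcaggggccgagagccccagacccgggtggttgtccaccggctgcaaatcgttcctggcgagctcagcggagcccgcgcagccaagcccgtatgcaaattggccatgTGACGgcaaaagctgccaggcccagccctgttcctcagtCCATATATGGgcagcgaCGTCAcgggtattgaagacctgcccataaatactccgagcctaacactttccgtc

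The Fos window held TGACG starting at -129 and at -66 from the transcription start, and TATAAA starting at -33. The Egr2 window held TGACG starting at -111, a CArG box at -72 and CGTCA at -55. Searched on both strands, TGACG was present in 17.8% of all 32851 promoter windows of this length and the CArG box in 1.47%. TATAAA, searched on the forward strand, was present in 7.59%. The CArG box was found in 4 of the 5 Egr2 windows and in no base of the 250 shown for Fos. Bases farther upstream were not searched, so the windows cannot show whether Fos has a CArG box there. Neither gene's windows held the AP-1 site TGANTCA, present in 6.75% of windows, or the EGR site GCGNGGGCG, present in 4.7%. These matches describe the letters of the windows only.

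Fos was higher in cuff than in sham cortex at both times. At 2 weeks the cuff arrays had a lowest, median and highest log2 level of 10.75, 11.06 and 11.23, against 9.25, 9.92 and 10.66 in sham. All 6 cuff arrays lay above all 6 sham arrays, by a gap of 0.09 at its narrowest. In raw intensity, before correction and normalisation, the same groups overlapped, with 1799, 2036 and 2693 in cuff against 522, 1044 and 2135 in sham. At 8 weeks the levels were 10.95, 11.41 and 11.68 in cuff and 8.99, 10.27 and 11.11 in sham. There 5 of 6 cuff arrays lay above every sham array, and sham replicates 2 and 6 lay above the lowest cuff array.

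Egr2 showed the wider gap at 2 weeks. Its lowest, median and highest log2 levels were 9.78, 10.17 and 10.44 in cuff, against 7.83, 8.37 and 9.14 in sham, so that 0.64 separated the lowest cuff array from the highest sham array. The raw intensities were also apart, at 998, 1098 and 1567 in cuff and 229, 371 and 924 in sham. At 8 weeks the levels were 9.47, 10.10 and 10.59 in cuff and 7.73, 8.75 and 9.71 in sham. Here 4 of 6 cuff arrays lay above every sham array, and sham replicate 2 lay above the lowest pair of cuff arrays. Among all 22456 tested probes, every cuff array lay above every sham array for 25 probes (0.111%) at 2 weeks and for 44 (0.196%) at 8 weeks. Since this contrast served to choose the genes, nothing is read from these shares.

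**Figure D1:**
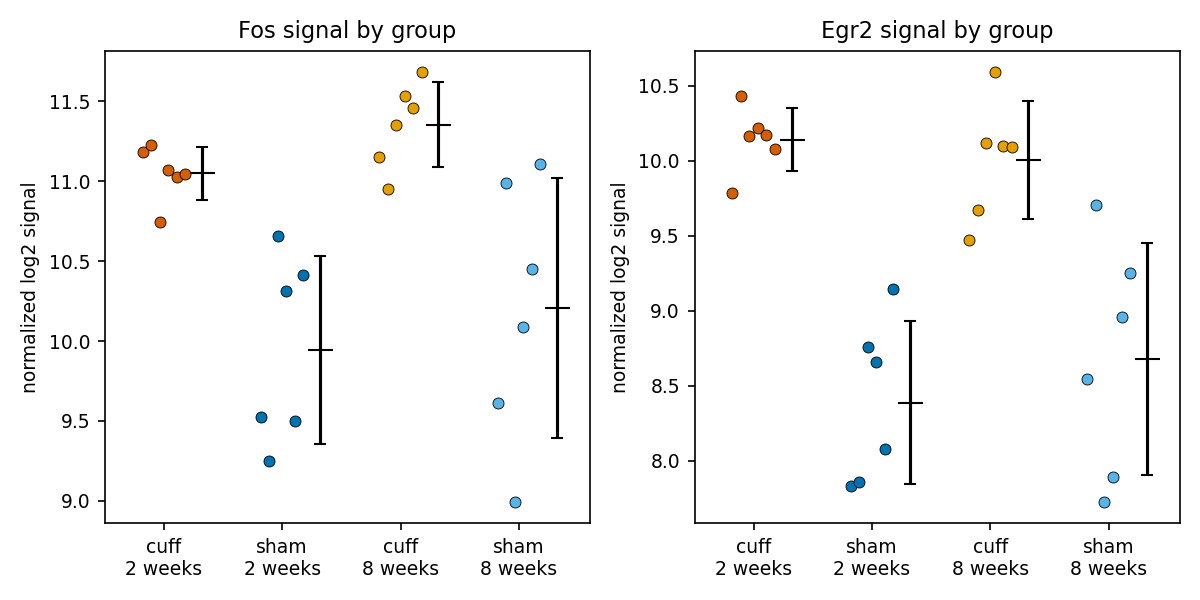
Log2 level of the Fos and Egr2 probes on each array (points) with the group mean and SD (bars), for cuff and sham at 2 and 8 weeks. At 2 weeks the 6 cuff arrays lie above the 6 sham arrays for both genes, and the sham groups are the more widely spread.

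At 2 weeks the mean of Fos was 11.05 ± 0.17 in cuff and 9.94 ± 0.59 in sham, with n = 6 per group and the SD as error. At 8 weeks it was 11.36 ± 0.27 in cuff and 10.21 ± 0.82 in sham. The difference, cuff minus sham, was 1.11 ± 0.28 (SE) on the log2 scale at 2 weeks, a fold of 2.16. It was 1.15 ± 0.28 at 8 weeks, a fold of 2.22. Egr2 averaged 10.14 ± 0.21 in cuff and 8.39 ± 0.54 in sham at 2 weeks, and 10.01 ± 0.39 in cuff and 8.68 ± 0.78 in sham at 8 weeks. Its difference was 1.75 ± 0.27 at 2 weeks, a fold of 3.37, and 1.33 ± 0.27 at 8 weeks, a fold of 2.51. Between times, 8 minus 2 weeks, the cuff difference moved by 0.04 ± 0.39 for Fos and by -0.43 ± 0.39 for Egr2, which was not tested. In order of group mean, Fos ran from sham at 2 weeks through sham at 8 weeks and cuff at 2 weeks to cuff at 8 weeks, and Egr2 had the same order except that its cuff groups were swapped. In both orders, neighbours within a treatment were closer than 1 SD of the more widely spread neighbour, except that the mean of Fos at 8 weeks in cuff lay 0.31 above that at 2 weeks, against an SD of 0.27.

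The time after surgery was tested in limma over all 22456 probes with Benjamini-Hochberg adjustment, and 0 of the 2 genes passed an adjusted p of 0.05 in either treatment. In sham, 14 probes (0.0623%) passed, and in cuff 91 (0.405%). Fos differed by 0.31 ± 0.28 (8 minus 2 weeks, 95% interval -0.26 to 0.87, adjusted p = 0.602) in cuff. In sham it differed by 0.26 ± 0.28 (-0.30 to 0.83, adjusted p = 0.696). Egr2 differed by -0.13 ± 0.27 (-0.70 to 0.43, adjusted p = 0.846) in cuff and by 0.29 ± 0.27 (-0.27 to 0.86, adjusted p = 0.663) in sham. The intervals still hold changes from -0.70 to 0.87, so smaller changes with time could not be resolved by this fit. Its SEs, intervals and p-values rest on a spread pooled over all groups. The SD of Fos was 0.17 and 0.27 in cuff at 2 and 8 weeks, against 0.59 and 0.82 in sham. The pooled SE is thus wider than the cuff arrays alone would give and narrower than the sham arrays would. A test with separate spreads was not run.

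The levels varied widely among mice of the same group. The pooled within-group SD was 0.53 for Fos and 0.52 for Egr2, against a median of 0.21 over all tested probes, which put them at ranks 290 and 298 of 22456 from the most variable. Of the 1616 probes within 0.5 log2 of the mean level of Fos, 12 had an SD at least as large as its own, itself included, and of 2536 probes near the level of Egr2, 25 did.

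This spread was not even across groups. At 8 weeks Fos had an SD of 0.27 in cuff (rank 3079 among the probes in that group) and 0.82 in sham (rank 30). At 2 weeks it was 0.17 in cuff (rank 15271) and 0.59 in sham (rank 552). Egr2 had an SD of 0.39 in cuff (rank 482) and 0.78 in sham (rank 42) at 8 weeks, and of 0.21 in cuff (rank 10800) and 0.54 in sham (rank 695) at 2 weeks. The difference in SD between groups was not tested. At both times some sham arrays came within 0.09 of the lowest cuff array for Fos or lay above it, while others lay more than 1 log2 unit beneath it. At 2 weeks the sham Fos levels fell into 3 low arrays (9.25 to 9.52) and 3 high ones (10.31 to 10.66).

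Within groups, Fos and Egr2 rose and fell together across mice. Over the deviations of the 24 arrays from their group means, Pearson's r was 0.83 (permutation within groups, 100000 resamples, two-sided p = 0.00036) and Spearman's rho was 0.85 (permutation p = 9e-05). Both genes deviated in the same direction on 20 of 24 arrays. Without the 2 arrays whose Fos deviation was farthest from the median, replicates 3 and 6 of sham at 8 weeks, r was 0.78. Because r is taken on deviations from group means, the cuff difference does not enter it.

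The 4 groups contributed unequally. In cuff at 2 weeks, r was -0.01 (exact permutation p = 0.986, adjusted over the 4 groups 0.986) and rho was 0.26 (p = 0.658 by the exact permutation test, adjusted 0.658). In sham at 2 weeks, r was 0.92 (exact permutation p = 0.0417, adjusted 0.0833) and rho was 0.77 (exact p = 0.103, adjusted 0.206). In cuff at 8 weeks, r was 0.74 (exact permutation p = 0.0944, adjusted 0.126) and rho was 0.54 (exact p = 0.297, adjusted 0.396). In sham at 8 weeks, r was 0.86 (exact permutation p = 0.0333, adjusted 0.0833) and rho was 0.89 (exact p = 0.0333, adjusted 0.133). No group passed 0.05 after adjustment, and the difference in r between groups was not tested. For rho, the smallest unadjusted p that the exact permutation test allows with 6 arrays is 0.00278.

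The groups also differed in the range of Fos. In cuff at 2 weeks Fos spanned 0.48 log2 units, against 1.41 in sham at 2 weeks, 0.73 in cuff at 8 weeks and 2.12 in sham at 8 weeks. Leaving out 1 array at a time moved r between -0.56 and 0.60 in cuff at 2 weeks, but only between 0.89 and 0.97 in sham at 2 weeks, 0.70 and 0.85 in cuff at 8 weeks, and 0.77 and 0.95 in sham at 8 weeks. Without the 2 arrays farthest from the group's median Fos, r was -0.89 in cuff at 2 weeks, 0.95 in sham at 2 weeks, 0.95 in cuff at 8 weeks and 0.77 in sham at 8 weeks, each over 4 arrays. The r in sham at 2 weeks lies across the 3 low and 3 high Fos arrays, and the same 3 arrays were also the highest for Egr2; a relation within either set of 3 cannot be tested.

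**Figure D2:**
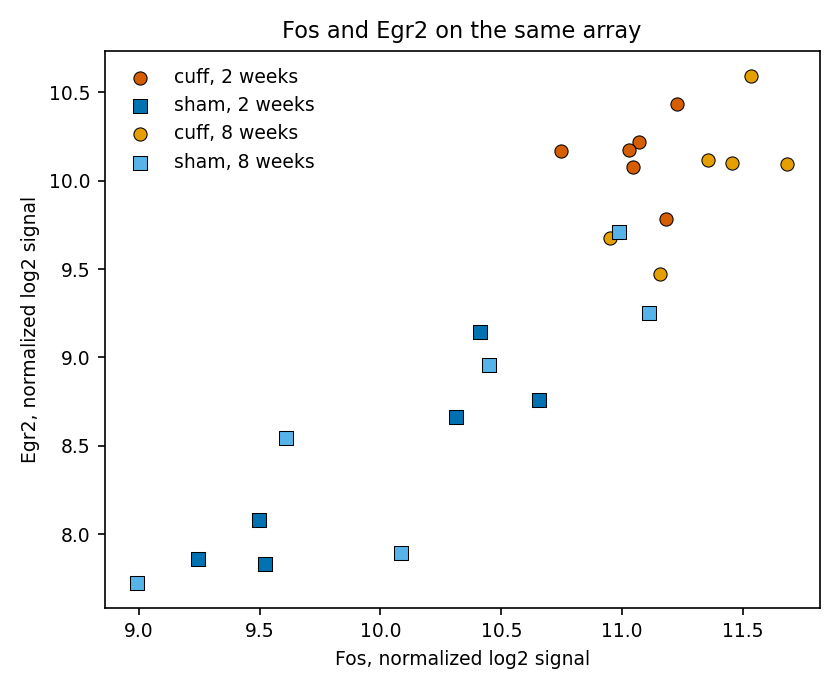
Egr2 against Fos, both as log2 level, 1 point per array, coloured by group. The sham arrays spread along a rising diagonal at both times, while the 6 cuff arrays at 2 weeks cluster within 0.48 log2 units of Fos.

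Measures of array quality were set beside both genes. Within groups, Fos had an r of 0.26 with the number of detected probes, 0.03 with the log2 median raw intensity and 0.29 with the number in the sample name. The same values for Egr2 were 0.09, 0.06 and 0.25. Between groups, the mean number of detected probes at 2 weeks was 20826 (SD 346) in cuff and 20964 (SD 622) in sham. At 8 weeks it was higher in cuff, at 21246 (SD 296) against 20797 (SD 339) in sham. The part of this in the cuff difference was not tested. The number in the name was read here as a mouse number, which is an inference. The names give no slide or hybridisation position, so these were not examined.

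Among all probes, the 5 that moved most like Fos were those of immediate early genes. Ranked by within-group r over the 24 arrays, the 5 nearest to Fos were Arc (0.90), Npas4 (0.89), Dusp1 (0.86), Egr2 (0.83) and Ccn1 (0.82). Arc encodes a cytoskeletal protein that is translated near synapses and regulates AMPA receptor uptake, Npas4 a transcription factor switched on by neuronal calcium, Dusp1 a phosphatase that switches off MAP kinases, and Ccn1 (Cyr61) a secreted matrix protein. The 5 nearest to Egr2 were Junb (0.84), Fos (0.83), Arc (0.80), Egr4 (0.80) and Gadd45b (0.80). Junb encodes a partner of Fos in AP-1, Egr4 another EGR zinc finger factor and Gadd45b a stress and activity-induced protein linked to DNA demethylation. Egr2 thus ranked 4th of the other 22455 probes for Fos, and Fos ranked 2nd for Egr2. Lower ranks also held genes of none of the lists used below, such as Gdpd3 at rank 7 for Fos (0.80) and Tmprss11a at rank 9 for Egr2 (0.69). The median r over all probes was -0.0007 with Fos and 0.01 with Egr2, and the 95th percentile was 0.33 and 0.34.

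The mice that were high or low for Fos were largely so for its neighbours. In sham at 8 weeks, replicate 3 was lowest and replicates 2 and 6 were highest for Fos, and Arc had an r with Fos of 0.93 in that group. In sham at 2 weeks, Arc had an r of 0.99 with Fos and 0.92 with Egr2, and Npas4 had 0.94 and 0.97. In cuff at 8 weeks, Junb had an r of 0.93 with Fos and 0.91 with Egr2, while Arc had 0.60 and 0.19. In cuff at 2 weeks, Arc had -0.11 with Fos and -0.06 with Egr2, and Junb had -0.68 and -0.28. These values over 6 arrays each are descriptions.

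**Figure D3:**
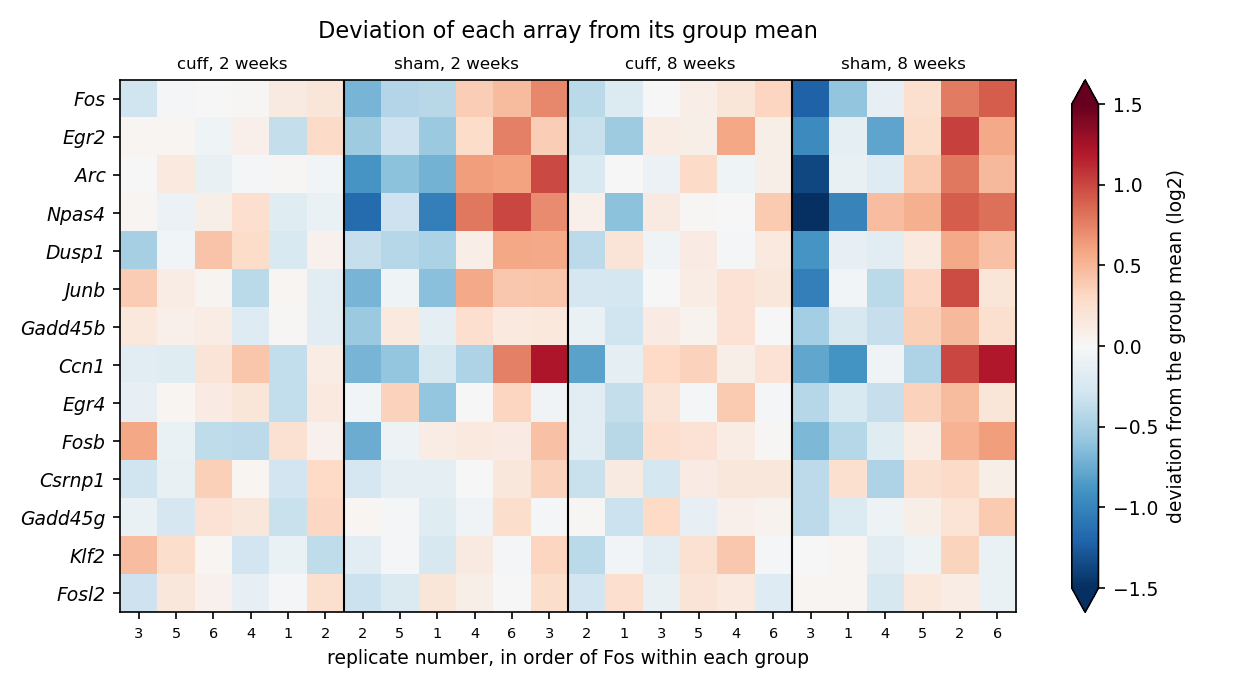
Deviation of each array from its group mean (log2, colour) for Fos, Egr2 and 12 genes shown for their likeness to them or because they rose in cuff, with arrays ordered by Fos within each group. In the sham groups the arrays low for Fos on the left are low for most rows and the arrays high for Fos on the right are high, with paler and less ordered columns in the cuff groups.

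The rest of the pathway was read from 4 lists of genes: inducible transcription factors, inducible effectors and feedback genes, the upstream kinases and factors that switch them on, and partners and repressors of EGR proteins. Of 74 listed genes besides Fos and Egr2, 55 had a tested probe, and the probe with the highest mean signal stood for each gene. Averaged over both times, 8 of the 55 rose in cuff against sham and 0 fell at an adjusted p under 0.05 in limma, while 22 of all 22456 probes (0.098%) were called, all of them higher. The list's median difference was 0.11 log2, with 41 of 55 above 0. Over all tested probes the median was 0.00, with 50.0% above 0. These lists were drawn up with earlier results of these arrays known, so the counts describe the genes and are not independent support.

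Among inducible transcription factors, 5 of 15 rose and the median difference was 0.37. Junb, the AP-1 subunit, had 10.40 ± 0.26 in cuff and 9.28 ± 0.55 in sham at 2 weeks, and 10.65 ± 0.21 in cuff and 9.89 ± 0.68 in sham at 8 weeks. Its averaged difference was 0.94 ± 0.17 (SE, limma adjusted p = 0.0243). Csrnp1, a nuclear factor induced by axin, differed by 0.74 ± 0.11 (limma adjusted p = 0.002), and Egr4 by 0.74 ± 0.12 (limma adjusted p = 0.00404). Klf2, a Krüppel-like factor best known in endothelium, differed by 0.52 ± 0.10 (limma adjusted p = 0.0305). Fosl2, a Fos relative, differed by 0.44 ± 0.08 (limma adjusted p = 0.0243). Npas4 had a difference of 0.88 ± 0.28 and Fosb one of 0.71 ± 0.15, with limma adjusted p of 0.805 and 0.0732.

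Levels of the EGR family itself were looked at after their values were seen. Beside Egr2 and Egr4, Egr3 differed by 0.30 ± 0.07 (limma adjusted p = 0.219) and Egr1 by 0.24 ± 0.06 (limma adjusted p = 0.306). All 4 differences were above 0, and neither Egr1 nor Egr3 passed the test. Within groups, Egr1 had an r of 0.69 with Fos and 0.61 with Egr2.

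Among effectors and feedback genes, 3 of 23 rose and the median difference was 0.16. Dusp1 had 12.41 ± 0.34 in cuff and 11.29 ± 0.49 in sham at 2 weeks, and 12.38 ± 0.22 in cuff and 11.53 ± 0.52 in sham at 8 weeks, an averaged difference of 0.99 ± 0.15 (limma adjusted p = 0.00404). Arc had 11.82 ± 0.09 in cuff and 10.64 ± 0.82 in sham at 2 weeks, and 12.14 ± 0.17 in cuff and 11.23 ± 0.77 in sham at 8 weeks. Its averaged difference was 1.04 ± 0.21 (limma adjusted p = 0.047), and its SD in cuff was again the narrower. Gadd45g, a relative of Gadd45b, differed by 0.47 ± 0.09 (limma adjusted p = 0.0354) by its brighter probe, while its other tested probe gave 0.49 ± 0.11 (limma adjusted p = 0.132). Ccn1 had a difference of 1.08 ± 0.24 by its brightest probe and Gadd45b one of 0.45 ± 0.11, with limma adjusted p of 0.122 and 0.205. The other tested Ccn1 probes gave 0.64 ± 0.18 (limma adjusted p = 0.525) and 0.47 ± 0.13 (limma adjusted p = 0.537). The Ccn1 probes had low mean log2 levels, at 5.73, 5.44 and 4.97.

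No gene of the other lists passed: 0 of 12 upstream genes and 0 of 5 EGR partners in limma, where 3 and 0 had an unadjusted p under 0.05. Of all 22456 tested probes, 935 had an unadjusted limma p under 0.05 and 22 (0.098%) passed. The upstream and partner lists had median differences of 0.03 and 0.01. Crem, a cyclic AMP responsive repressor and activator gene, had a difference of 0.14 ± 0.06 by its brightest probe. Its other tested probes gave -0.06, 0.04 and -0.06. Srf, serum response factor itself, had a difference of 0.11 by its brighter probe and 0.17 by its other. The kinase gene Camk4 had -0.12. Among EGR partners the differences lay between -0.05 for Ddx20 and 0.05 for Sox10.

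Taken at single times, fewer genes passed. At 2 weeks Csrnp1 was the 1 list gene that rose (0.90, limma adjusted p = 0.0313), beside 2 of 22456 probes called (0.00891%). An unadjusted p under 0.05 was found for 20 of 55, against 1094 of 22456 probes. At 8 weeks 0 of 55 passed in limma, as did 0 of all probes (0%), and the list's smallest adjusted p was 0.249. There 24 of 55 were under an unadjusted 0.05, against 862 of 22456 probes. All 6 cuff arrays lay above all 6 sham arrays at 2 weeks for 6 of 55 list genes, namely Junb, Egr4, Csrnp1, Arc, Dusp1 and Gadd45b, beside the 0.111% of all probes given above. At 8 weeks this held for 1 of 55, Fosl2, beside 0.196%. For time after surgery, 0 of 55 passed in limma in either treatment, with 10 under an unadjusted 0.05 in each. Of all 22456 probes, 2935 in sham and 4154 in cuff were under it, so nothing is read from the list's 10. For the cuff difference at 8 against 2 weeks, 0 of 55 passed in limma, with 3 under an unadjusted 0.05, against 1081 of 22456 probes.

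The count of 8 depended on single arrays. It was 3 without cuff replicate 6, sham replicate 2 or sham replicate 5 at 2 weeks, and likewise without cuff replicate 4, cuff replicate 5 or sham replicate 4 at 8 weeks. It was 4 without cuff replicate 3 at 2 weeks. It was 5 without cuff replicate 2, cuff replicate 5 or sham replicate 1 at 2 weeks, and without cuff replicate 1, cuff replicate 6 or sham replicates 1, 3 or 5 at 8 weeks. Without sham replicate 6 at 8 weeks it was 12. Csrnp1, Dusp1 and Egr4 stayed called in all 24 such omissions, Junb in 17, Fosl2 in 15, Klf2 in 10, Gadd45g in 6 and Arc in 5. With neighbouring mouse numbers as blocks, a setting chosen after seeing the data, 0 of 55 passed in limma and 23 had an unadjusted p under 0.05. At 8 weeks the blocks of mice 25 and 27 (both sham) and of 39 and 42 (both cuff) hold no cuff and sham pair. The share of all probes that passed in this setting is not given here, so the 0 and the 23 cannot be set beside it.

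**Figure D4:**
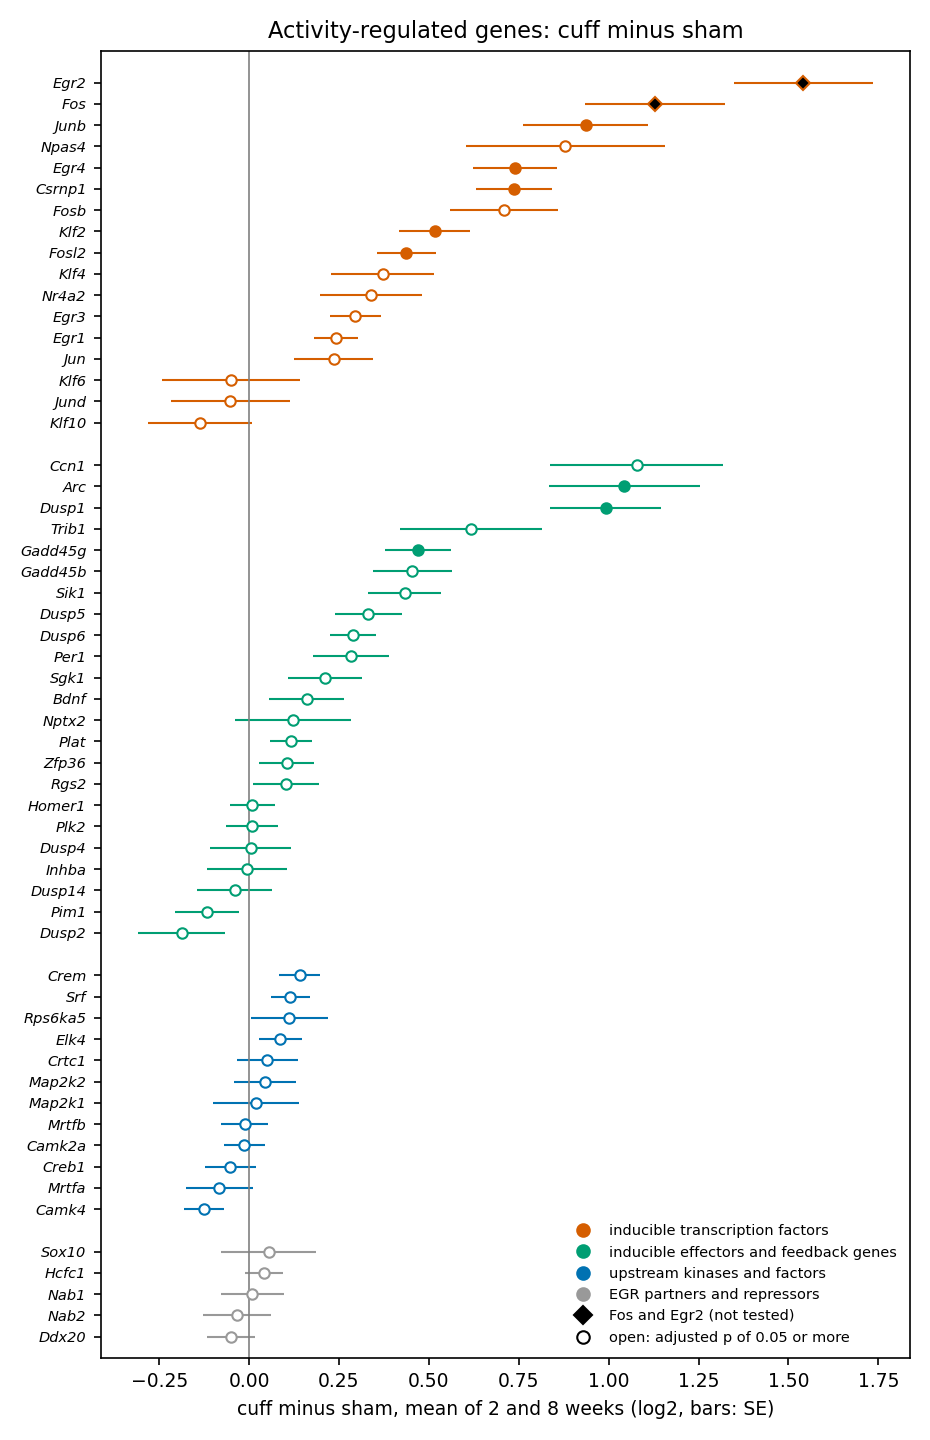
Cuff minus sham, averaged over 2 and 8 weeks (log2, bars are SE), for Fos, Egr2 and the 55 measured genes of the 4 lists. Filled circles passed an adjusted p of 0.05 and all lie right of 0; the upstream and EGR partner genes gather around 0.

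Likeness to Fos and Egr2 followed the same division among lists. A within-group r above 0.5 with both genes was found for 7 of 15 inducible transcription factors, 9 of 23 effectors, 0 of 12 upstream genes and 0 of 5 EGR partners, against 54 of 22456 tested probes (0.24%). The median r with Fos and with Egr2 was 0.55 and 0.50 for the transcription factors, 0.26 and 0.36 for the effectors, -0.12 and -0.05 for the upstream genes, and 0.22 and 0.08 for the EGR partners. Crem came closest among upstream genes, at 0.48 with Fos and 0.55 with Egr2 by its brightest probe. Its other tested probes had -0.40, 0.12 and 0.24 with Fos and -0.01, 0.31 and 0.20 with Egr2. Klf2 and Fosl2 rose with cuff but had an r of only 0.26 and 0.30 with Fos. Promoter windows were at hand for 55 of the listed genes besides Fos and Egr2, measured or not, a different set from the 55 measured ones. Of the genes with a window, 32 held TGACG, against 19.8% of all genes, and 3 held a CArG box, against 1.62%.

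**Figure D5:**
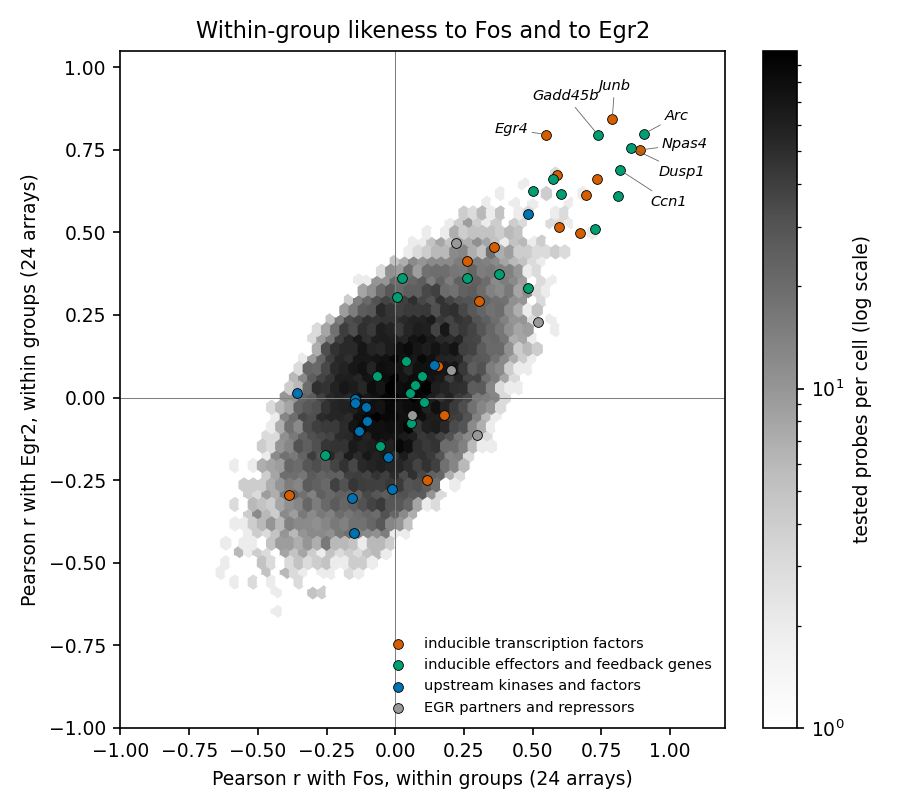
Within-group Pearson r with Egr2 against that with Fos over 24 arrays, for all tested probes (grey, number per cell on a log scale) and the 55 list genes (coloured points). Arc, Npas4, Dusp1, Junb, Gadd45b, Ccn1 and Egr4 lie at the upper right, outside the bulk of probes. The upstream genes other than Crem (0.48 and 0.55 by its brightest probe) lie lower on both axes.

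Markers of the cell types that bulk tissue could hold were set beside these values. Of 55 marker genes in 10 lists, 50 were measured and 0 passed in limma for the averaged cuff difference. Of the 50, 0 had an unadjusted p under 0.05, against 935 of all 22456 tested probes. The marker differences lay between -0.13 and 0.29. The 7 of 8 measured neuron markers had a log2 summed level of 15.76 to 15.91 in cuff and 15.79 to 15.94 in sham at 2 weeks, and of 15.80 to 15.92 in cuff and 15.83 to 15.96 in sham at 8 weeks. Their summed level had an r of 0.04 with Fos and -0.13 with Egr2 within groups. Blood markers, 3 of 4 measured, had the r farthest from 0, at -0.41 with Fos and -0.38 with Egr2. Their log2 summed level was 13.75 to 14.25 in cuff and 13.88 to 14.36 in sham at 2 weeks, and 13.49 to 14.00 in cuff and 13.26 to 13.75 in sham at 8 weeks. For the other lists r lay between -0.28 and 0.18, and the part of any of these in the covariation of Fos and Egr2 was not tested.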

How the data were processed

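Per the file headers and labels, the deposited table holds raw bead intensity and a detection p-value for 45281 probes of 24 arrays, exported with GenomeStudio 2011.1 per the submitters' processing notes. RNA was extracted with a lipid tissue kit and labelled with biotin, per the labels' protocols. The deposited series value table holds linear intensities (medians 87.79 to 87.85 per array) in the same order within each array as the raw ones. Its values are positive, uncentred levels with nearly the same distribution on every array, as quantile normalisation gives, though no label or header names the method. It served as an alternative.

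Raw intensities were corrected and quantile-normalised with neqc in limma 3.58.1 (R 4.3.3, offset 16), which estimates background from detection p-values. Probes detected (p under 0.05) on at least 6 arrays were tested with lmFit and eBayes, 1 mean per group, two-sided, with Benjamini-Hochberg adjustment over 22456 probes. The fit had 20 residual and 5.05 prior degrees of freedom, and the median SE of a difference between groups was 0.119. The procedure was tested on simulated data, in which each probe's deviations from its group means were shuffled over the arrays. Such data keep neither the covariation among genes nor the uneven spread between groups. They therefore do not show how the calls fare under these. The number of arrays limits the precision, and limma p-values weigh a difference against the spread between these samples, pooled over the 4 groups.

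Probe names come from the platform annotation: 34885 probes had 1 symbol, 18 several and 10378 none. Promoters are from RefSeq GRCm38.p6. Named genes were, for each of Fos and Egr2, the 5 probes with the highest within-group r, every list gene that passed, per list the 4 highest by mean r and the 3 with the largest averaged difference, and Dusp1. Genes and lists were chosen with earlier results of these data known. Alternatives covered background correction, normalisation, the detection filter, the deposited value table, array weights, an array background covariate, mouse number, the choice of probe and each replicate left out.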

Additional observations from a re-analysis of the deposited data

Results flagged for a closer look

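In a screen for single arrays far from the rest of their group, 10 genes (Fos, Egr2 and the 8 list genes that rose) were examined in each of the 4 groups. Of these 40 tests 0 marked an array, where chance would mark about 2.0.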

How the results depend on the processing

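The cuff differences, the time contrasts and the pooled correlation of Fos and Egr2 kept their direction and their side of any threshold in the settings run. Across settings the averaged difference was 1.01 to 1.18 for Fos and 1.35 to 1.59 for Egr2, and with 1 replicate left out it was 1.01 to 1.22 and 1.45 to 1.65. At 8 weeks the lowest values were 0.906 for Fos and 1.14 for Egr2, each with 1 replicate left out. The pooled r was 0.815 to 0.857 across settings and 0.779 to 0.869 with 1 replicate left out. The count of list genes that rose, 8 as reported, was 4 with median scaling, 4 with no detection filter, 4 with mouse number as a covariate and 0 with neighbouring mouse numbers as blocks (chosen after seeing the data, smallest adjusted p 0.172); the cause was not tested. It was 3 to 12 with 1 replicate left out, 6 to 12 in the other settings, and every call was higher in cuff. No paired analysis by replicate number was possible because the labels carry no such numbers shared between groups, and nothing states that neighbouring mouse numbers pair the mice. A 2-group difference on 6 arrays each carries an SE near 0.27 for these genes, with the spread pooled over all groups. This limits what can be said of time and of the cuff difference between times.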
